A study of Mus musculus with 2 samples.

Results

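The elastic fibre and lysyl oxidase genes were examined here in RNA of microvesicles shed by fat cells and in RNA of their donor cells. The genes were the fibrillins Fbn1 and Fbn2, tropoelastin (Eln), the fibulins Fbln1, Fbln2 and Fbln5, the lysyl oxidases Lox, Loxl1 and Loxl2, and the microfibril-associated glycoprotein Mfap5. They were chosen by gene name on the array, which gave 15 probes of 10 genes out of 41174 probes under 27962 gene names. Each member probe was a single spot on each array, and 6 genes had 1 probe, 3 had 2 and 1 had 3.

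The donor cells, of the mouse preadipocyte line 3T3-L1, store fat once induced. They grew in 10% fetal calf serum, and induction used the phosphodiesterase inhibitor IBMX (0.5 mM), the glucocorticoid dexamethasone (0.25 µM) and insulin (10 µg/ml). On day 11 adipocyte-derived microvesicles (ADMs) were spun out of the conditioned medium, and total RNA was taken from the ADMs and from the donor adipocytes of the same day. The 2 biological replicates were each 1 ADM RNA and 1 cell RNA hybridised together to a 2-colour Agilent mouse array, with the ADM RNA in Cy5 in replicate 1 and in Cy3 in replicate 2. The labels do not say whether the replicates were separate cultures or collections, so the p-values speak for these arrays only. With 2 arrays every value is imprecise. In limma each probe's variance was also drawn towards a value shared by all tested probes (2.91 prior and 1 residual degrees of freedom). A p-value thus rests mostly on that shared value and less on the probe's own spread. Lox, for example, had an SD of 0.01 between the arrays but a standard error of 0.11 in the test. All directions rest on the dyes named in the labels.

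Elastic fibres give skin, lung and vessels their recoil. A core of cross-linked elastin is laid down on a scaffold of fibrillin microfibrils. Fibulins help to place tropoelastin and the cross-linking enzymes on that scaffold, and lysyl oxidases, copper-dependent amine oxidases, join elastin and collagen chains by oxidising lysine side chains. In adipose tissue, fibrillin microfibrils and cross-linked collagen form part of the matrix around each fat cell, and fibroblasts and preadipocytes are known sources of them.

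Of the 15 probes, 10 had signal well above background in the ADM RNA of both replicates, and 3 had it in the cell RNA of both. Over the whole array the percentages were 45.8 in the ADM RNA and 23.8 in the cell RNA. Relative to probes of similar brightness, 5 probes were higher in the ADM RNA, 1 each of Fbn1, Fbln2, Fbln5, Lox and Loxl1, and no member probe was lower. Over all tested probes 5.53% were higher and 10.9% lower. Eln, Fbln1, Loxl2 and the other Fbn1 probe did not pass, and Fbn2 and Mfap5 were too dim to test. The test took in probes well above background in either RNA on both arrays, and 7 of the 10 entered it through the ADM RNA alone. Among these 7 were the Fbn1 and Lox probes that passed, so their calls are given as values only. No member was seen on both arrays in the cell RNA and on neither in the ADM RNA, as 1.77% of all probes were.

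Promoter sequence was available for 4 of the 10 genes in the RefSeq-derived table of mouse build GRCm38.p6. It is shown for the 3 of them with a probe that was higher in the ADM RNA, as the sequence before annotated starts. Which start the transcripts in these RNAs used was not measured. The ratios compare RNA in vesicles with RNA in cells and carry no measurement of promoter activity. Each line holds the 250 bases before a transcript start, 5′ to 3′ on the gene's strand, and capitals mark the GC box GGGCGG or its reverse complement CCGCCC.
Fbn1, chr2:125506439-125506688, minus strand: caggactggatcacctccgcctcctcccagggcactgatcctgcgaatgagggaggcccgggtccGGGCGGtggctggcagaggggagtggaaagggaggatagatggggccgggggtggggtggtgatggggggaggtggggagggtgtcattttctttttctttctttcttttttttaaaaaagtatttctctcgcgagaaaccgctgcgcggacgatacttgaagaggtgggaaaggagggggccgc
Fbln2, chr6:91212514-91212763, plus strand: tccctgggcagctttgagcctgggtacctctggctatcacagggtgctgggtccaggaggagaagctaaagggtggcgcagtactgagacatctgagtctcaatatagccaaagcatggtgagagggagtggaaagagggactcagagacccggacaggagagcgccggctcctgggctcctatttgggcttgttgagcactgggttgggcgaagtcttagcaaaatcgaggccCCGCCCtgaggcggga
Fbln5, chr12:101819120-101819369, minus strand: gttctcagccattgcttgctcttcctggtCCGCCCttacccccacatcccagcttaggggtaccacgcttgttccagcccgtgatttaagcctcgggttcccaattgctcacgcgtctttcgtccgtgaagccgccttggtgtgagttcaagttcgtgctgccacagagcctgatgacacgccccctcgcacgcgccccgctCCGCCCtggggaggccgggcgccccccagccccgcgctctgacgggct
The Fbn1 and Fbln2 windows held 1 GC box each and the Fbln5 window 2, in a search of both strands. A GC box was present in 32.7% of the 32841 windows of the table. The TATA box TATAAA (12.4% of windows) and the AP-1 motif TGANTCA (6.75%) had no match in the 3 windows. Their GC content was 59.2% for Fbn1, 58.8% for Fbln2 and 65.2% for Fbln5, against a median of 52.4% over the table. A second Fbln5 start, at chr12:101818485-101818734, had none of the 3 motifs and a GC content of 49.6%.

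The arrays set the scale on which these genes have to be read. Signals are given as net signal, the mean intensity of a spot minus the median of its local background, in scanner units. Among tested probes the median net signal was 565 and 214 units in the ADM RNA of replicates 1 and 2, against 17.6 and 37.5 units in the cell RNA. The 153 negative control spots had medians of 5.12 and 4.10 units in the ADM channel and 5.41 and 2.08 units in the cell channel, with 95th percentiles of 15.1 and 10.2 units and of 10.4 and 7.64 units. Over the probes well above background in both RNAs, the net signal of the ADM RNA was a median of 65.1 times that of the cell RNA in replicate 1 and 8.84 times in replicate 2, so a higher raw signal in the ADM RNA is the rule on these arrays. Log2 ratios of ADM RNA over cell RNA were therefore taken after loess, which sets each probe against probes of the same mean brightness, and they describe the make-up of the RNAs, not amounts per vesicle or cell.

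The core of the microfibril is fibrillin. The probe of Fbn1 at chromosome 2, 125041844 to 125041903 (mm7, minus strand; A_51_P467224), gave a net signal of 1297 and 299 units in the ADM RNA of replicates 1 and 2, against 7.66 and 11.4 units in the cell RNA. The ADM signals were far above the negative controls on both arrays, and the cell signals lay within or near them. Its log2 ratio after loess was 0.56 in replicate 1 and 0.64 in replicate 2, a mean of 0.60 ± 0.05 (SD, n = 2; limma adjusted p = 0.0429). The cell RNA was well above background on neither array, so no measured cell level stands under this ratio and no fold is given. The ratio moved with the processing, to 1.17 with a background offset of 10 in place of 50 and to 0.05, not past the threshold, with outlying local backgrounds kept.

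The other Fbn1 probe lay 467 bases away, at 125042371 to 125042430 (A_52_P224801), upstream on the transcript. It gave 245 and 75.3 units in the ADM RNA, against 10.0 and 4.77 units in the cell RNA. Its log2 ratio was 0.02 in replicate 1 and 0.38 in replicate 2 (mean 0.20 ± 0.25, SD, n = 2; limma adjusted p = 0.364), so it did not pass. The first probe exceeded it by 0.54 and 0.26 on the log2 scale in replicates 1 and 2. The gene therefore had 1 probe of 2 past the threshold, both seen in the ADM RNA and neither in the cell RNA.

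Fbn2, the fibrillin of fetal microfibrils, was well above background in neither RNA. Its probe on chromosome 18 gave 5.34 and 8.52 units in the ADM RNA, against 12.5 and 14.8 units in the cell RNA. Mfap5, which binds fibrillins and belongs to mature microfibrils, gave 38.8 and 14.8 units in the ADM RNA, against 4.78 and 7.91 units in the cell RNA. It was well above background in the ADM RNA of replicate 1 only, so the filter kept it out of the test. Its probe lay at chromosome 6, 122565741 to 122565800 (mm7).

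Eln encodes tropoelastin, the soluble precursor of elastin. Its probe at chromosome 5, 133674539 to 133674598 (mm7, minus strand), gave 56.8 and 23.7 units in the ADM RNA, against 12.7 and 14.2 units in the cell RNA. The log2 ratio was -0.16 in replicate 1 and -0.06 in replicate 2 (mean -0.11 ± 0.07, SD, n = 2; limma adjusted p = 0.503). Tropoelastin signal was thus weak but well above background in the ADM RNA of both replicates, and no difference relative to probes of its brightness was detectable.

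**Figure D1:**
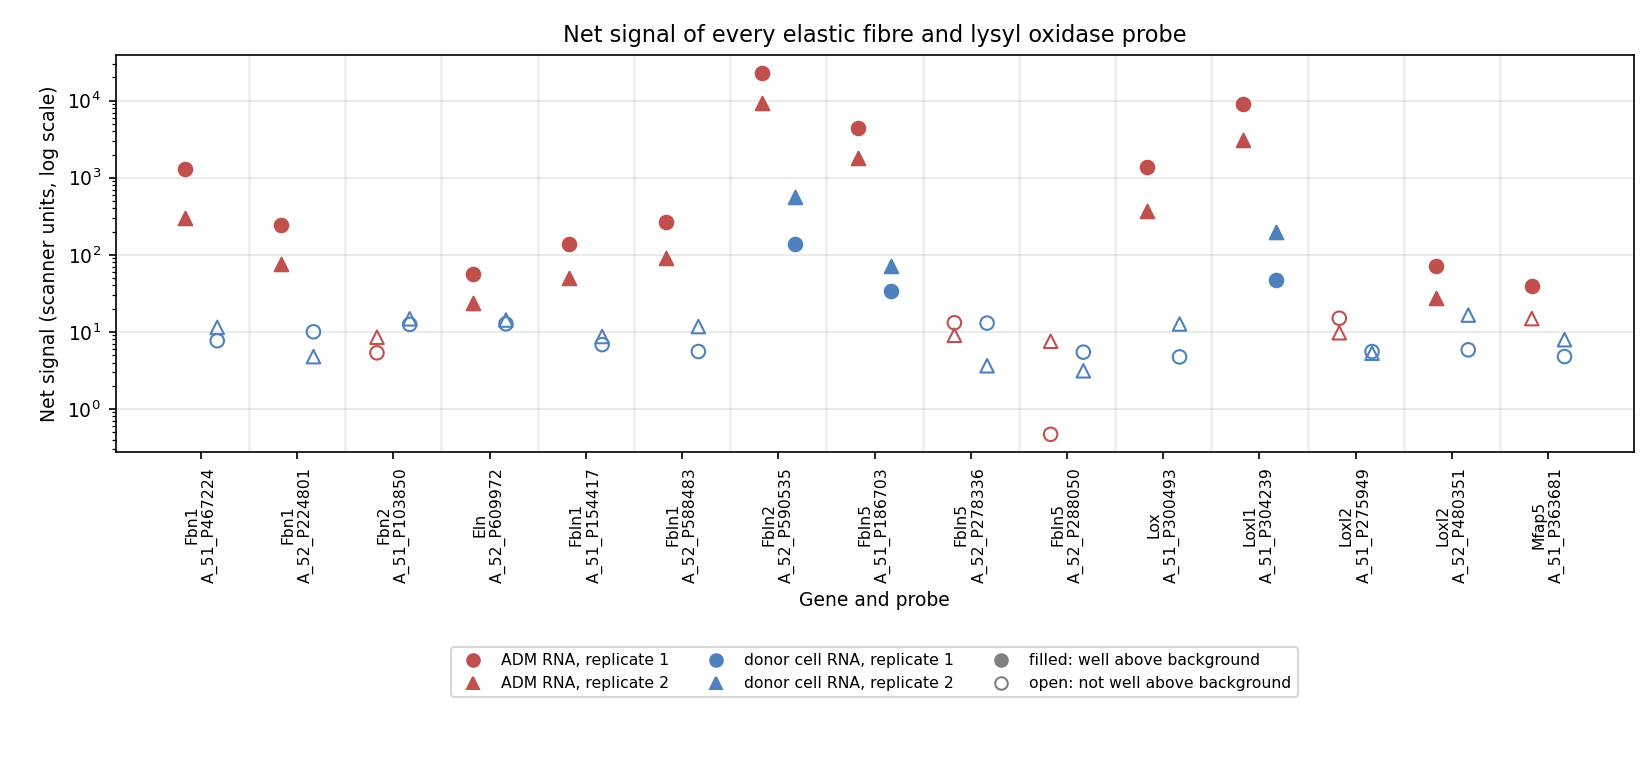
Net signal in scanner units (log axis) of each of the 15 member probes, with ADM RNA left of donor cell RNA, circles for replicate 1 and triangles for replicate 2, and open symbols where the spot was not well above background. Fbln2, Fbln5 and Loxl1 each have a probe with filled symbols in both RNAs, while Fbn1 and Lox have them in the ADM RNA alone.

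Fibulins bridge elastin, microfibrils and basement membranes. Fbln2, which binds fibrillin and basement membrane proteins, gave 23053 and 9364 units in the ADM RNA, against 138 and 557 units in the cell RNA. That is 167 times in replicate 1 and 16.8 times in replicate 2, beside a median of 65.1 and 8.84 times on the same arrays. These raw ratios are not set against probes of the same brightness, so they add nothing to the ratio after loess. After loess its log2 ratio was 0.65 and 0.70, so the arrays differed little (mean 0.68 ± 0.04, SD, n = 2; limma adjusted p = 0.0345), a 1.60-fold difference. The log2 ratio was 0.80 with an offset of 10, and 0.51, not past the threshold, with outlying local backgrounds kept. The probe lay at chromosome 6, 91354450 to 91354509 (mm7, plus strand).

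Fbln5 is needed for elastic fibre assembly in mice and carries tropoelastin to microfibrils. One of its 3 probes, at chromosome 12, 99245331 to 99245390 (mm7, minus strand; A_51_P186703), gave 4386 and 1819 units in the ADM RNA, against 33.8 and 71.5 units in the cell RNA. Its log2 ratio was 0.61 in replicate 1 and 1.13 in replicate 2, the widest gap between arrays among the member probes that passed (mean 0.87 ± 0.36, SD, n = 2; limma adjusted p = 0.0470), a 1.83-fold difference. The net signal ratios, again not set against probes of the same brightness, were 129.9 and 25.4. With an offset of 10 the log2 ratio was 0.98, and 0.30, not past the threshold, with outlying local backgrounds kept. The fold thus holds for the main processing only.

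The other Fbln5 probes were well above background in neither RNA. The probe at 99242020 to 99242079 (A_52_P278336), 3251 bases further towards the 3′ end on the genome, gave 13.1 and 9.03 units in the ADM RNA, against 13.0 and 3.63 units in the cell RNA. The probe at 99259844 to 99259903 (A_52_P288050), 14453 bases on the 5′ side of the bright probe and designed on a cDNA clone, gave 0.468 and 7.55 units in the ADM RNA, against 5.45 and 3.12 units in the cell RNA. The Fbln5 result therefore belongs to a single probe of 3.

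Fbln1, a fibulin of elastic fibres and basement membranes that also binds fibronectin, was seen in the ADM RNA by both of its probes and in the cell RNA by neither. The probe at chromosome 15, 85367745 to 85367805 (mm7; A_51_P154417), gave 137 and 49.97 units in the ADM RNA, against 6.83 and 8.69 units in the cell RNA. The probe at 85367889 to 85367948 (A_52_P588483), 83 bases away, gave 268 and 90.9 units in the ADM RNA, against 5.56 and 11.7 units in the cell RNA. Their log2 ratios after loess were 0.15 ± 0.03 and 0.19 ± 0.08 (SD, n = 2 each; limma adjusted p = 0.375 and 0.300), and neither passed. All 4 single-array values were above 0, between 0.13 and 0.24.

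Lysyl oxidases carry out the cross-linking. Lox, the founding member, which oxidises lysines of collagen and elastin, gave 1376 and 369 units in the ADM RNA, against 4.73 and 12.7 units in the cell RNA, on its 1 probe (chromosome 18). The cell signals lay at or near the level of the negative controls. Its log2 ratio was 0.71 in replicate 1 and 0.73 in replicate 2 (mean 0.72 ± 0.01, SD, n = 2; limma adjusted p = 0.0309). As for Fbn1, the cell RNA was well above background on neither array and no fold is given. The ratio was 1.42 with an offset of 10, and 0.07, not past the threshold, with outlying local backgrounds kept.

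Loxl1, the paralog that mice need for the upkeep of elastic fibres in adult tissue, was seen in both RNAs. Its probe at chromosome 9, 58319258 to 58319317 (mm7, minus strand), gave 8977 and 3123 units in the ADM RNA, against 47.0 and 195 units in the cell RNA. The log2 ratio was 0.98 in replicate 1 and 0.68 in replicate 2 (mean 0.83 ± 0.21, SD, n = 2; limma adjusted p = 0.0339), a 1.78-fold difference. In net signal the ADM RNA had 191 and 16.0 times the value of the cell RNA. The log2 ratio was 0.90 with an offset of 10, and 0.41, not past the threshold, with outlying local backgrounds kept.

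Loxl2, a lysyl oxidase known for cross-linking basement membrane collagen, was near the limit of detection. The probe at chromosome 14, 64339741 to 64339800 (mm7; A_52_P480351), gave 72.0 and 27.7 units in the ADM RNA, against 5.84 and 16.5 units in the cell RNA. Its log2 ratio had opposite signs in the replicates, 0.17 and -0.16 (mean 0.01 ± 0.23, SD, n = 2; limma adjusted p = 0.982). The second probe, at 64336628 to 64336687 (A_51_P275949), gave 15.02 and 9.73 units in the ADM RNA, against 5.55 and 5.27 units in the cell RNA, and was well above background in neither.

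The count of 5 higher and 0 lower probes among 10 tested stood beside 16.4% of 18117 tested probes called in either direction over the array, 5.53% higher and 10.9% lower. Among probes well above background in both RNAs on both arrays, 9.96% were called higher and 19.2% lower, and the 3 members of that kind (Fbln2, Fbln5 and Loxl1) were all higher. The other 7 tested members, among them the Fbn1 and Lox probes that passed, were well above background in the ADM RNA on both arrays and in the cell RNA on neither. That kind made up 7 of the 15 member probes and 13.0% of all probes, and since the filter let these 7 in through the ADM RNA, where their signal is high, their calls are given as values only. With no filter, the same 5 of all 15 member probes were higher and 0 lower. Of all 37976 probes, 1114 (2.93%) were then higher and 1926 (5.07%) lower. The median log2 ratio was then 0.18 over the 15 and 0.0029 over all probes.

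**Figure D2:**
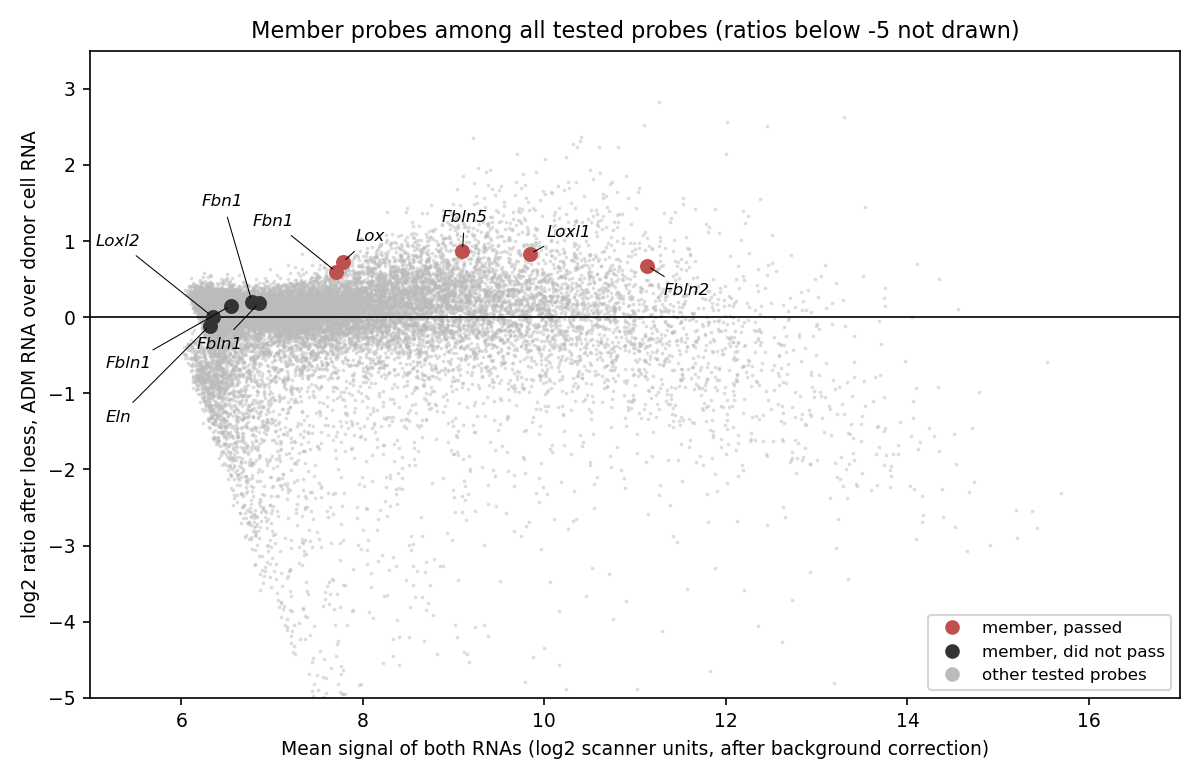
Log2 ratio after loess (mean of the arrays, ADM RNA over donor cell RNA) against the log2 mean signal of both RNAs for the 18117 tested probes, with 126 probes below the lower limit of the axis not drawn. The 5 member probes that passed lie between 0.60 and 0.87, and the 5 that did not pass lie between -0.11 and 0.20.

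The calls depended on which spots and which scale were used. With spots of outlying local background kept, limma called 0 of all probes (677 at an unadjusted p under 0.05) and 0 of the members, whose called ratios then ran from 0.05 (Fbn1) to 0.51 (Fbln2), at an adjusted p of 0.547 each. None of the member spots was among those left out. With the scanner's own ratio, where 32.0% of all tested probes were called higher and 14.2% lower, 5 member probes were also called higher, of which 2 were the same (Fbn1 A_51_P467224 and Lox). The other Fbn1 probe (3.34) and both Fbln1 probes (2.84 and 2.23) passed, while Fbln2 (0.89, adjusted p = 0.0597), Fbln5 (1.13, adjusted p = 0.0516) and Loxl1 (1.12, adjusted p = 0.0636) did not. With median centring in place of loess, 59.5% of all tested probes were called higher and 1.46% lower, and the same 5 member probes were called. The median of all tested probes moved to 2.04 on that scale, and these 5 stood above it, by 1.09 (Fbn1), 1.28 (Lox), 2.42 (Fbln5), 2.72 (Loxl1) and 3.07 (Fbln2). The other 5 tested probes lay below that median, by up to 1.88 (Eln). Median centring does not set a probe against probes of its own brightness. The 5 called probes were also the brightest tested members in the ADM RNA, and their centred ratios rose in the order of their brightness. A probe of the adipocyte marker Fabp4 that was lower after loess stood at 5.37 on this scale.

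**Figure D3:**
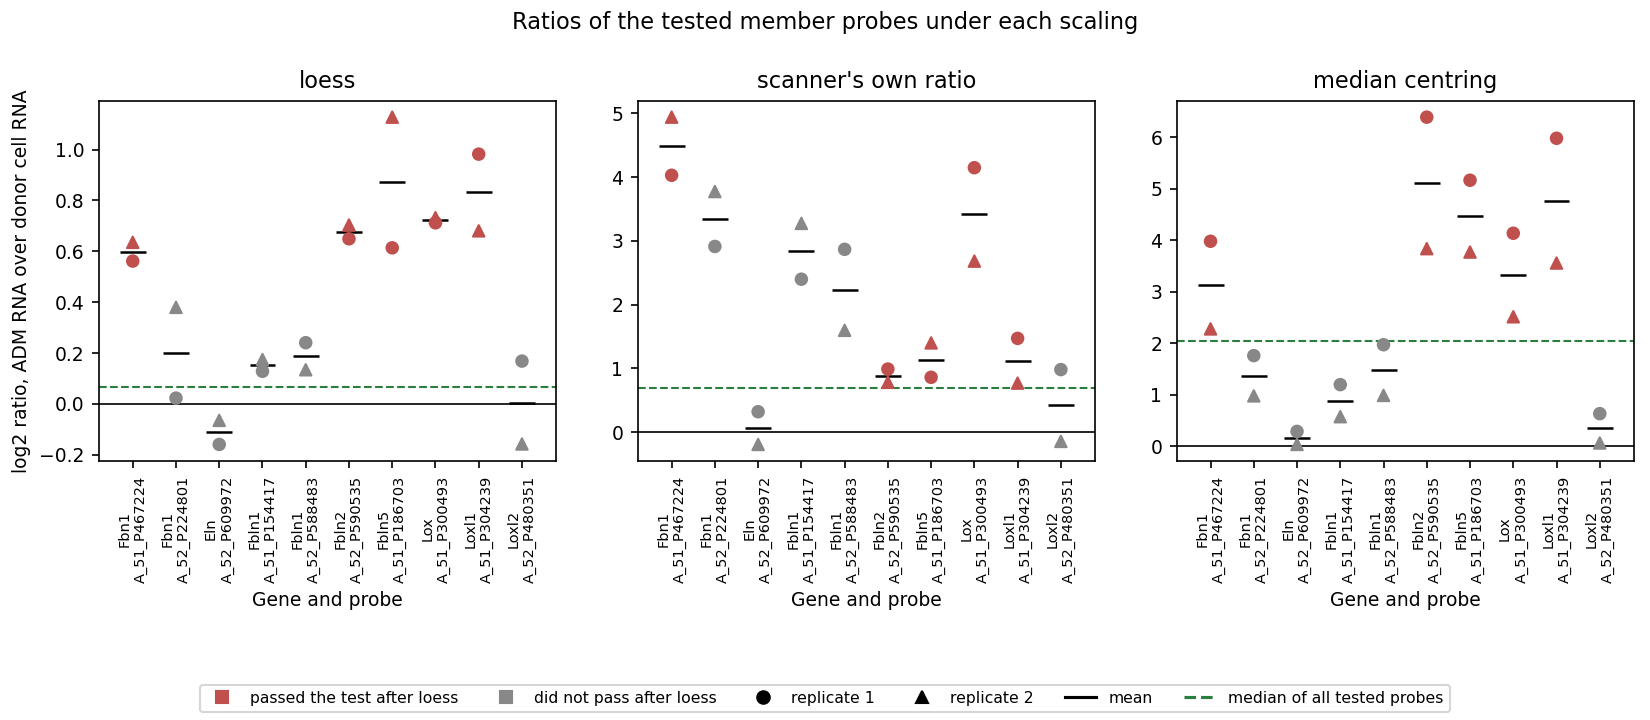
Log2 ratios, ADM RNA over donor cell RNA, of the 10 tested member probes in replicate 1 (circles) and replicate 2 (triangles) after loess, with the scanner's own ratio and with median centring, each panel on its own axis. The dashed line is the median of all tested probes (0.07, 0.69 and 2.04), and the 5 probes in red, which passed after loess, lie above it in all 3 panels. With the scanner's own ratio the other Fbn1 probe and both Fbln1 probes, in grey, also lie above it. Their means there exceed those of Fbln2, Fbln5 and Loxl1.

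A list of 35 further genes of the pathway was read from the same fit, and 34 of them had a probe. Of their 28 tested probes (24 genes), 3 were higher in the ADM RNA and 4 lower (10.7% and 14.3%), beside 5.53% and 10.9% of all tested probes. With median centring 16 were higher and 0 lower (57.1% and 0%), beside 59.5% and 1.46% of all tested probes. With the scanner's own ratio 10 were higher and 4 lower (35.7% and 14.3%), beside 32.0% and 14.2%. On both scales the shares of the list were thus near those of the array. After loess the other 21 missed the threshold, and the median of the 28 log2 ratios was 0.11. No microfibril-associated gene (Mfap2, Mfap3, Mfap4) passed, nor did the other tested lysyl oxidase, Loxl3. Loxl4 was not well above background on any of its probes. Efemp2, the fibulin that mice need to form elastic fibres, had bright signal, 22338 and 10043 units in the ADM RNA, against 510 and 1558 units in the cell RNA, but an outlier flag in replicate 1 kept it out of the test, and in replicate 2 its log2 ratio was -0.71.

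The genes that passed were spread over other roles. Slc31a1, the copper importer, stood at 1.06 ± 0.23 (SD, n = 2; limma adjusted p = 0.0247), on 1 of its 2 tested probes, and Furin, the protease that trims profibrillin, at 0.99 ± 0.23 (limma adjusted p = 0.0271). Ltbp4, a latent TGF-beta binding protein that takes part in elastic fibre assembly, was lower at -3.27 ± 0.16 (limma adjusted p = 0.00272). It gave 746 and 314 units in the ADM RNA, against 215 and 528 units in the cell RNA, so its raw signal was higher in the cell RNA of replicate 2. Emilin3, of the emilin family of matrix glycoproteins, was lower at -1.56 ± 0.78 (limma adjusted p = 0.0459). With median centring Ltbp4 stood at 0.14 and Emilin3 at -0.41, both below the median of 2.04.

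Other genes of the list had probes that disagreed. Bmp1, the protease that releases the propeptide of lysyl oxidase, was higher on its brighter probe (0.57 ± 0.07, SD, n = 2; limma adjusted p = 0.0468) and lower on the other (-0.78 ± 0.10; limma adjusted p = 0.0297). Ltbp3 did not pass on its brighter probe (0.18 ± 0.19; limma adjusted p = 0.372) and was lower on the other (-0.86 ± 0.08; limma adjusted p = 0.0254), a probe named here after its value was seen. The copper pump Atp7a (0.53 ± 0.04; limma adjusted p = 0.0521) and the copper chaperone Atox1 (-0.48 ± 0.05; limma adjusted p = 0.0625) missed the threshold on opposite sides of 0.

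**Figure D4:**
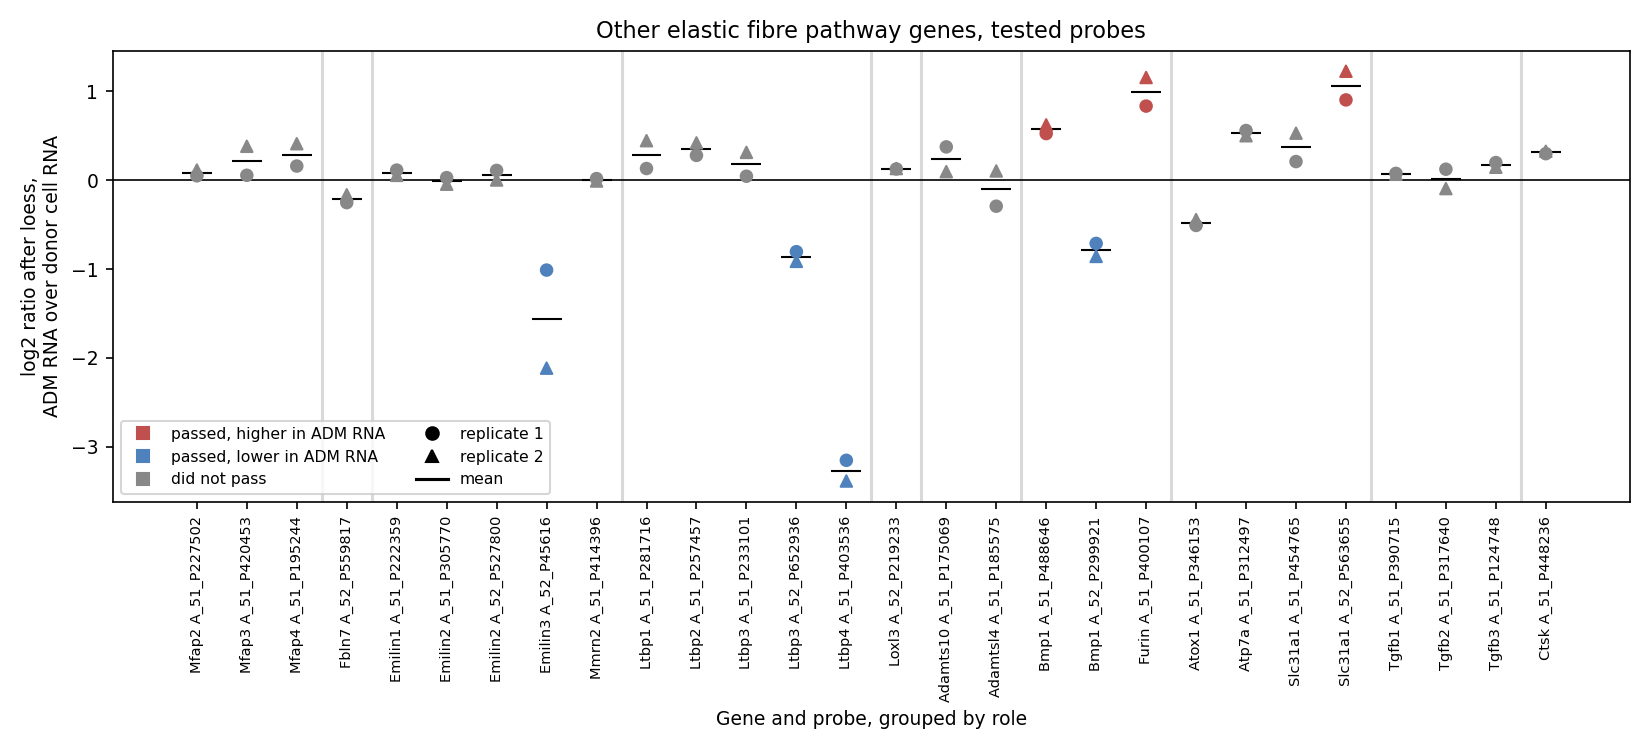
Log2 ratios after loess, ADM RNA over donor cell RNA, of the 28 tested probes of the other pathway genes, grouped by role, with circles for replicate 1, triangles for replicate 2 and a bar for the mean. The 3 red probes (Bmp1, Furin, Slc31a1) passed as higher and the 4 blue ones (Emilin3, Ltbp3, Ltbp4, Bmp1) as lower in the ADM RNA.

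Markers of cell types were read beside these values, and their counts stand against the 5.53% of all tested probes that were higher and the 10.9% that were lower. All 14 probes of 10 adipocyte markers were well above background in the ADM RNA of both replicates, and 13 of them in the cell RNA of both, the exception being leptin (Lep). Of the 8 tested adipocyte probes, 1 was higher in the ADM RNA and 4 were lower (Fabp4, Lpl, Plin1 and 1 Retn probe). With median centring these 4 stood at 5.37, 2.97, 4.19 and 4.04, beside a median of 2.04 over all tested probes. With the scanner's own ratio they stood at 1.49, -1.17, -0.02 and -0.32, beside 0.69. The other Retn probe was at 0.72 after loess and did not pass. Outlier flags left the other adipocyte probes untested. Their replicate 2 ratios, where kept, were 1.03 (Adipoq), 1.11 (Cfd), 1.16 (Lpl) and 0.75 (Fabp4). Of 18 probes of 8 fibroblast and preadipocyte markers, 14 were well above background in the ADM RNA and 9 in the cell RNA. Of the 14 tested, 7 were higher in the ADM RNA and 0 lower, with a median log2 ratio of 0.58, among them periostin, a matrix protein of fibroblasts (Postn, 2.23 ± 0.41, SD, n = 2; limma adjusted p = 0.0130). The adipocyte median was -0.43 after loess. With median centring the fibroblast and preadipocyte median was 4.96 and the adipocyte median 4.42, beside 2.04 over all tested probes. With the scanner's own ratio these medians were 1.68 and 0.79, beside 0.69. Some of the 14, both Pdgfra probes among them, entered the test through the ADM RNA alone. Net signals of the 18 fibroblast and preadipocyte probes summed to 514019 and 205598 units in the ADM RNA, against 1576 and 6599 units in the cell RNA. Those of the 14 adipocyte probes summed to 3248060 and 1546630 units, against 15142 and 106240 units. A raw excess in the ADM RNA was the rule on these arrays (medians of 65.1 and 8.84 times). Pdgfra, the defining receptor of preadipocytes, was well above background in the cell RNA on neither array. Of its 2 probes 1 was higher in the ADM RNA (0.80, limma adjusted p = 0.0393). All other markers of that list (Dlk1, Thy1, Postn, Vim, Col1a1, Col1a2 and Col3a1) had a probe well above background in the cell RNA of both replicates. Of 7 tested probes of smooth muscle, a source of elastin in vessels, 0 were higher in the ADM RNA and 1 was lower, and of 2 tested macrophage probes 0 were higher and 1 was lower. None of 9 probes of 5 endothelial markers was well above background in either RNA on both arrays. The part of preadipocytes or fibroblasts in the elastic fibre values was not tested, and in such bulk RNA fewer cells of a type and less RNA per cell cannot be told apart.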

How the data were processed

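The data were 1 dual-colour array for each of 2 replicates. Per the file headers, Feature Extraction 10.5.1.1 gave the deposited intensity of each spot and its background, not normalized. It also gave a deposited log10 ratio (Cy5 over Cy3) after background subtraction, detrending and dye normalization. The deposited series table repeats that log10 ratio with the sign of replicate 2 turned at all 45018 spots within 1e-05 (median 0 on each array), which puts ADM RNA over cell RNA in both, on the scanner's own scale and centring, and was not used further. Both arrays lay on 1 slide. No member spot was saturated or carried an outlier flag. Array annotation is that of mm7, and the exon or UTR under each probe was not looked up.

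Spots whose own or local background reading carried an outlier flag were left out (2322 gene spots of replicate 1 and 1711 of replicate 2). Background was corrected with normexp (offset 50), and ratios were loess-normalized within arrays (control spots at weight 0), turned to ADM over cell RNA and averaged per probe. A probe was tested where at least 50% of its spots passed the scanner's background test in ADM RNA on both arrays or in cell RNA on both, which left 18117 of 41174; 1704 further probes lacked a value. The mean ratio was tested against 0 with limma 3.58.1 (R 4.3.3) at a Benjamini-Hochberg adjusted p of 0.05 over all tested probes, with 1 residual and 2.91 prior degrees of freedom. The pipeline was run on simulated data, with changes larger than the members' ratios and only in probes well above background in both RNAs. It therefore says nothing about calls of smaller changes or of probes seen in the ADM RNA alone.

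All members are named with every probe. Of the pathway list, the rule names, by brightest tested probe, up to 6 genes each with the highest and lowest ratios past the threshold, and genes with probes past it in opposite directions. The members, lists and spot filter were chosen with earlier results of these data known.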

Additional observations from a re-analysis of the deposited data

How the results depend on the processing

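Over all probes, 2972 passed (1001 higher and 1971 lower in the ADM RNA). The count was 11038 with median centring (10773 higher, 265 lower), 8372 with the scanner's own ratio (5798 higher, 2574 lower), 4865 with scaling between arrays, 4930 with an offset of 10, and 0 both with outlying local backgrounds kept and with no spot left out (677 and 159 at an unadjusted p under 0.05 in limma). With these same spot settings, 0 member probes and 0 of the pathway list passed in limma (0 and 0 of the members and 1 and 0 of the list at an unadjusted p under 0.05); the cause was not tested. With only probes well above background in both RNAs, 3 member probes were left in the test, and all 3 passed, as they had among all tested probes. Of the pathway list, 7 probes passed. With median centring 16 passed (57.1% higher and 0% lower, beside 59.5% and 1.46% of all tested probes). With the scanner's own ratio 14 passed (35.7% higher and 14.3% lower, beside 32.0% and 14.2%). An offset of 10 moved Fbn1 to 1.17 and Lox to 1.42 and the median of the 10 tested member probes to 0.67, against 0.40 with an offset of 50. Eln turned to 0.16 with median centring and to 0.064 with the scanner's own ratio. Loxl2 turned to -0.0035 in both settings that kept flagged spots, and to -0.16 without replicate 1 (0.17 without replicate 2). Without either replicate the 5 higher probes stood at 0.56 to 1.13. Each such value is the ratio of the other array. Probes with opposite signs could hardly pass with 2 arrays, so the shared sign is no separate support. No test is left with 1 array, so no count of calls exists there. At gene level 4 of the 5 genes passed, without Fbln5 by the brightest probe (adjusted p = 0.0501 in limma) and without Fbn1 by the median of probes (adjusted p = 0.100 in limma). With median centring limma gave all probes 1 shared variance, so its p-values do not reflect a probe's own spread. Each array's ratio is already the pair of ADM RNA and cell RNA, so the test against 0 is the paired comparison and no other was run. A slide block could not be fitted with 1 slide. The Fbn1, Fbln1, Eln, Lox and Loxl2 ratios rest on cell RNA that was not well above background.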
